A study of Mus musculus with 9 samples.

Results

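The comparison set 2 short hairpin RNAs against the same gene side by side: open chromatin in D2A1-d cells carrying shMed1 #4 was compared directly with that in cells carrying shMed1 #2. The members were chosen by the name of the hairpin in the labels, which gave 6 of the 9 libraries of the series, 3 for each hairpin. All 75936 peaks of the deposited table entered, and 75930 of them were tested. D2A1-d is a mouse breast carcinoma line, and the labels give its tissue as breast. The 3 groups were transduced with a non-targeting control hairpin (NTC; genotype WT, untreated), with shMed1 #2 or with shMed1 #4 (genotype Med1 Knockdown, untreated), and all were grown in the same medium with serum. The 3 NTC libraries were not in the contrast, and their values are given beside it. The replicates are labelled biological, but nothing describes separate cultures, and p-values here thus speak to the spread among these libraries alone. The hairpin sequences and the level of Med1 left in each group were not analysed here.

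Mediator is the multi-subunit coactivator that passes signals from enhancer-bound transcription factors to RNA polymerase II, and MED1 is the subunit through which nuclear receptors and several other factors contact it. The series belongs to a study of MED4, another Mediator subunit, and of dormancy in breast cancer metastasis. A hairpin RNA is processed like a microRNA and directs the slicing of its target transcript. Different hairpins against 1 gene share that target but can differ in how far they lower it and in which other transcripts they bind. In ATAC-seq a transposase inserts adapters into accessible DNA, so a peak marks an open promoter, enhancer or other regulatory element. The value of a peak is the number of reads in it divided by a size factor for the library, called normalized counts here. In such bulk samples, more cells with an open element and a wider opening in each cell cannot be told apart.

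Reads in peaks were 50.3, 37.7 and 53.7 M in the #2 libraries, 42.6, 34.8 and 38.7 M in the #4 libraries and 40.9 to 46.4 M in NTC. Log2 values of 2 hairpin libraries correlated across peaks at r = 0.988 to 0.991 within a hairpin and at 0.979 to 0.981 between hairpins. The first principal component over the 6 libraries held 47.1% of the variance and placed the hairpins apart, with scores of -44.1 to -37.8 in #2 and 36.3 to 42.7 in #4. The gene-end peak of Vim, the mesenchymal intermediate filament, was among the stronger ones at 4332 ± 14.2 normalized counts in #2 and 4568 ± 61.5 in #4 (SD, n = 3). Krt18, a simple-epithelial keratin, had one at 121 ± 8.90 in #2 and 172 ± 16.3 in #4. Cdh1, Epcam and Krt8, which mark epithelium, had peaks assigned to them but no gene-end peak. Neither did Ptprc and Cd3e of blood cells or Pecam1 and Kdr of endothelium. Cdh2, a mesenchymal marker, had no gene-end peak either. Of the epithelial markers named here, only Krt18 thus had a peak at a gene end. Jup, from the longer list of epithelial genes counted below, had a stronger gene-end peak, at 903 ± 72.0 in #2 and 1185 ± 10.7 in #4 (SD, n = 3).

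A limma fit on log2(value + 1) called 6439 peaks (8.48% of all tested) higher in #4 and 9897 (13.0%) lower in #4, at an adjusted p under 0.05 (Benjamini-Hochberg over all peaks). Together these were 16336 peaks, or 21.5%. Differences were mostly modest: the median called peak differed 1.33-fold between hairpins, or 0.41 on the log2 scale. A log2 difference of 1 or more was reached by 350 peaks higher in #4 and by 178 lower in #4. These larger differences sat at weak peaks, whose median level was 77.3 normalized counts for the higher and 131 for the lower group, against 204 over all peaks. The libraries of the hairpins did not overlap at 25508 peaks (33.6% of all tested). Of these, 15274 (20.1% of all tested) were also called, which is 93.5% of the calls. Of the called peaks, 60.6% were lower in #4. The median log2 difference over all peaks was 0.01.

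**Figure D1:**
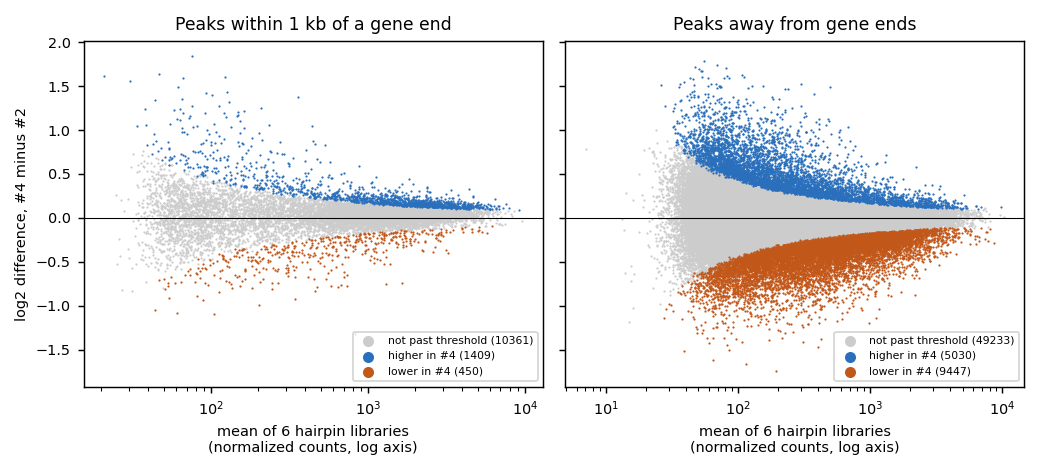
Log2 difference between hairpins (#4 minus #2) of each tested peak against its mean over the 6 hairpin libraries on a log axis, for peaks within 1 kb of a gene end (left) and for all others (right). Blue points are higher in #4 and orange points lower in #4 at an adjusted p under 0.05. At gene ends 1409 points are blue and 450 orange, and elsewhere 5030 are blue and 9447 orange.

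The direction differed by position. A gene-end peak is one centred no more than 1 kb from the first or last base of a protein-coding gene. Among 12220 such peaks, 1409 (11.5%) were higher in #4 and 450 (3.68%) lower, with a median log2 difference of 0.05. Without #2 replicate 2 the higher count came to 818, and without #4 replicate 2 to 864. Among the 63710 peaks away from gene ends, 5030 (7.90%) were higher and 9447 (14.8%) lower, with a median of -0.01 that turned positive with equal totals and with quantile scaling (0.01 and 0.00066). The gene-end peaks within 1 kb of a start site listed in RefSeq numbered 7735, of which 13.0% were higher in #4 and 2.08% lower. Gene-end peaks more than 1 kb from any listed start, at genes that have one, numbered 2121 and showed 7.21% higher and 8.96% lower. Start sites inside genes resembled those at gene ends, with 208 of 1508 peaks higher and 54 lower. Peaks with no gene within 50 kb had the greatest share of lower calls among the position classes, 19.3% of 8141, beside 8.28% higher.

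Strong peaks away from gene ends carried most of the lower calls. All peaks away from gene ends are called distal here, although they include start sites inside genes. The tested peaks were divided into quintiles by their mean over the hairpin libraries. In the 4th quintile, from 315 to 926 normalized counts, 3445 of 12534 peaks away from gene ends (27.5%) were lower in #4 and 1075 (8.58%) higher. In the 5th quintile the same class had 26.2% lower and 7.73% higher. Its median log2 differences were -0.07 in the 4th and -0.04 in the 5th quintile. Its median SE was 0.22 in the 1st quintile and 0.06 in the 5th, so shares of calls do not compare the size of differences across levels. Gene-end peaks of the 5th quintile went the other way, with 877 of 6437 (13.6%) higher and 156 (2.42%) lower. Against NTC, the distal peaks of the 5th quintile had a median log2 difference of 0.24 in #2 and 0.17 in #4, and the gene-end peaks one of -0.06 in #2 and -0.01 in #4. Both of these contrasts use the same NTC libraries. The quintiles were cut on the hairpin libraries without NTC, so a place in the 5th quintile itself favours values above NTC. In the 1st quintile the distal medians against NTC were -0.15 in #2 and -0.10 in #4. These medians therefore do not test a gain or loss against NTC.

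**Figure D2:**
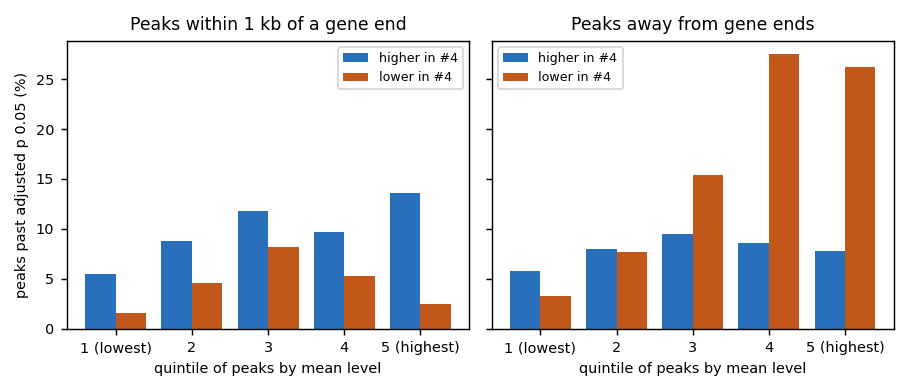
Percent of peaks past an adjusted p of 0.05 in each quintile of peaks by mean level, for gene-end peaks (left) and peaks away from gene ends (right). Blue bars are higher in #4 and orange bars lower in #4. The orange bars rise to 27.5% and 26.2% in the upper quintiles away from gene ends, while at gene ends the 5th quintile has 13.6% higher and 2.42% lower.

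The share of all signal that fell in gene-end peaks moved with the hairpin. It was 34.7%, 33.9% and 33.3% in the #2 libraries and 35.8%, 35.4% and 35.5% in the #4 libraries. In NTC it was 36.9%, 37.4% and 37.7%. The hairpins did not overlap, with #4 between #2 and NTC. The means were 34.0% ± 0.726 in #2 and 35.6% ± 0.228 in #4 (SD, n = 3), a difference of 1.60 percentage points. The two-sided exact permutation test gave p = 0.1, the smallest that 3 libraries against 3 allow. The part of this library-wide share in the calls at single peaks was not tested.

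The greatest difference at a gene end was at Meis2, a homeobox transcription factor (mm10, chromosome 2, 116066904 to 116067405). It held 32.5, 27.6 and 36.9 normalized counts in the #2 libraries and 136, 111 and 107 in the #4 libraries. The NTC libraries held 86.8, 61.8 and 59.6, so every #2 library was below and every #4 library above all of NTC. The log2 difference was 1.84 ± 0.21 (SE; limma, adjusted p = 3.3e-09), a 3.65-fold ratio of means. Both peaks assigned to Meis2 were higher in #4, the other by 1.503.

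Rbms3, an RNA-binding protein gene on chromosome 9, was higher in #4 at every peak assigned to it. Its strongest difference was at a gene-body peak (117251696 to 117252197) with 39.5, 49.5 and 69.0 normalized counts in #2 and 162, 175 and 147 in #4. NTC was at 107 ± 3.39 (SD, n = 3), between the hairpins, and the log2 difference was 1.63 ± 0.18 (limma, adjusted p = 5.48e-10). These were 7 peaks, all called, with log2 differences from 0.75 to 1.63. They spread from 116590981 to 117571560. The last of them, at 0.75, did not pass without #2 replicate 2 (limma, adjusted p = 0.0855) or without #4 replicate 2 (0.0587).

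Nrp1, a coreceptor for semaphorins and VEGF, had a gene-body peak (chromosome 8, 128488150 to 128488651) at 58.9, 21.9 and 47.6 in #2 and 119, 125 and 125 in #4. The log2 difference was 1.61 ± 0.23 (limma, adjusted p = 4.11e-07). At Stim1, the calcium sensor of the endoplasmic reticulum, a gene-body peak (chromosome 7, 102395862 to 102396363) held 32.5, 46.1 and 38.6 in #2 and 110, 125 and 121 in #4. At neither gene did the hairpins overlap, and NTC averaged 72.5 ± 14.7 at the Nrp1 peak and 71.6 ± 30.3 at the Stim1 peak (SD, n = 3). Jph1, a junctophilin that ties the endoplasmic reticulum to the plasma membrane, was higher at its gene end (chromosome 1, 17097608 to 17098109), with 60.4 ± 9.20 in #2 and 184 ± 20.7 in #4 and a log2 difference of 1.60 ± 0.16.

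The other peaks with the greatest rank on the higher side had log2 differences of 1.42 to 1.78. They belonged to the formin gene Diaph2, the scaffold gene Sash1, Efcab11, Csmd3, the insulin receptor adaptor Grb14, the centrosomal gene Cep126, the basement membrane gene Fras1 and the kinesin gene Kif5c, with 2 unassigned peaks on chromosomes 10 and 14. Fras1 had 55.3, 66.8 and 82.9 normalized counts in #2 and 188, 190 and 174 in #4 at its gene end. The 15 named peaks on this side averaged 50.3 to 126 over the hairpin libraries, so all were weak. The NTC mean lay between the hairpin means at 15 of 15.

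On the lower side, Cpne2, a copine that binds phospholipid in response to calcium, had the greatest difference at a gene end (chromosome 8, 94569292 to 94569793). It held 1180, 1130 and 1228 normalized counts in #2 and 483, 465 and 462 in #4. NTC held 595, 581 and 498, so #2 stood above and #4 below all of NTC. The log2 difference was -1.32 ± 0.07 (SE; limma, adjusted p = 3.02e-18). Of the peaks named by rank this was the strongest, at a mean of 825 over the hairpin libraries.

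Mapk4, an atypical MAP kinase, had the greatest lower difference of all (gene body, chromosome 18, 73947934 to 73948435). Its peak held 322, 296 and 279 in #2, 90.1, 97.6 and 79.0 in #4 and 135 ± 18.5 in NTC (SD, n = 3). The log2 difference was -1.74 ± 0.14 (limma, adjusted p = 6.46e-14). An intergenic peak near Sh3rf1, a scaffold of JNK signalling (chromosome 8, 61183006 to 61183507), held 560, 584 and 617 in #2 and 195, 198 and 243 in #4. Its NTC libraries, at 279, 209 and 226, overlapped #4 but not #2. A peak near Spo11, the meiotic recombination nuclease (chromosome 2, 172964218 to 172964719), went from 447 ± 16.9 in #2 to 168 ± 9.69 in #4 (SD, n = 3).

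Cobl, an actin nucleator, had 134, 117 and 126 in #2 and 43.0, 43.8 and 44.5 in #4 at a gene-body peak (chromosome 11, 12396186 to 12396687). Nalcn, the sodium leak channel, had a gene-body peak at 111, 92.1 and 91.1 in #2 and 30.7, 33.8 and 28.9 in #4. Peaks near Myl10, Ankrd34c and Pyroxd2, a gene-body peak of the uridine phosphorylase gene Upp2 and 3 unassigned peaks followed, with log2 differences of -1.67 to -1.37. One unassigned peak (chromosome 6, 127375630 to 127376131) held 620, 585 and 636 in #2, 240, 223 and 245 in #4 and 189, 174 and 174 in NTC, so both hairpins were above NTC there. At gene ends, Tmem274, Colca2, Bpifb4, Serpinb9e and Fnbp1, an F-BAR protein that bends membranes, had log2 differences of -1.10 to -0.92. The NTC mean lay between the hairpin means at 15 of the 18 named peaks and below both at 3.

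**Figure D3:**
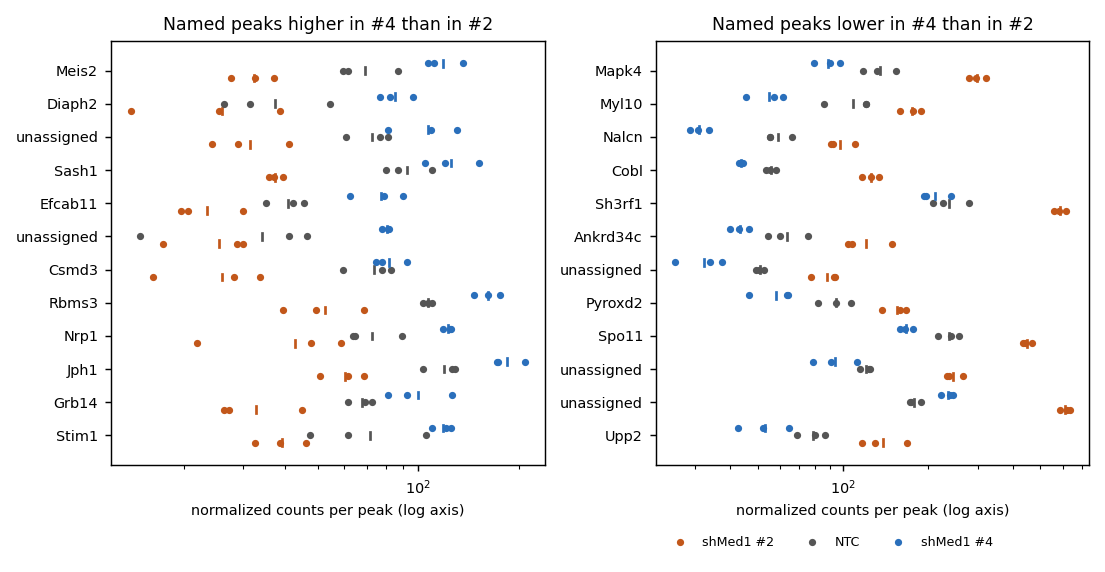
Normalized counts (log axis) in every library at the 12 named peaks with the greatest difference in each direction, shMed1 #2 in orange, NTC in grey and shMed1 #4 in blue. Points are libraries and bars are means of 3. The hairpins do not overlap, as the choice of peaks required, and NTC lies between them at most, with the unassigned peak above Upp2 an exception where NTC is lowest.

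No peak of the targeted gene passed the threshold between hairpins. The gene-end peak of Med1 (chromosome 11, 98192989 to 98193490) held 2152, 2049 and 1869 normalized counts in #2 and 2013, 1887 and 2014 in #4. The libraries overlapped, and the log2 difference was -0.04 ± 0.05 (limma, adjusted p = 0.681). A hairpin acts on the transcript, so this peak does not check the depletion. The Med4 peak at a gene end (chromosome 14, 73509727 to 73510228) held 553, 546 and 484 in #2 and 574, 464 and 598 in #4 (0.04 ± 0.08, adjusted p = 0.776). The second peak of each gene gave -0.14 ± 0.13 at Med1 and -0.14 ± 0.12 at Med4, neither past the threshold. At that Med1 peak the libraries of the hairpins did not overlap, which was so at 33.6% of all tested peaks.

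Promoter sequences were at hand for peaks that overlapped a RefSeq promoter window (GRCm38.p6; 250 bases before to 50 after a start site) by at least 150 bases. There were 7680 such peaks, 1080 higher in #4 and 163 lower. The named gene-end peaks with such a window are shown first, for the genes Grb14 (chr2:65022717-65023016, minus strand), Cep126 (chr9:8134397-8134696, minus strand) and Kif5c (chr2:49619036-49619335, plus strand), all higher in #4. Capitals would mark AP-1 matches, TGANTCA on either strand, and these 3 hold none. They hold 30, 30 and 14 CpG dinucleotides, beside a median of 22 over all 7680 windows.
Grb14: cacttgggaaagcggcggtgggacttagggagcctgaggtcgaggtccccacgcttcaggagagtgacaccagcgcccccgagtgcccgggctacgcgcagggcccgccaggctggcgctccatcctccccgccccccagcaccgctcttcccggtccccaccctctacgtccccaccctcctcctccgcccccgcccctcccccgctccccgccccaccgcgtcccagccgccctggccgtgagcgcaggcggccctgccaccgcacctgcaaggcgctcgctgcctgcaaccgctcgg
Cep126: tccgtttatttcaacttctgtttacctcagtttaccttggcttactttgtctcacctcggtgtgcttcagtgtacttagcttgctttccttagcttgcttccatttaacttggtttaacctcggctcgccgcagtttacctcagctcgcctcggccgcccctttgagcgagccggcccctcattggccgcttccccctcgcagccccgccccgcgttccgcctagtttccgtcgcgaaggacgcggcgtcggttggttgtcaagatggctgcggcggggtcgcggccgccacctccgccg
Kif5c: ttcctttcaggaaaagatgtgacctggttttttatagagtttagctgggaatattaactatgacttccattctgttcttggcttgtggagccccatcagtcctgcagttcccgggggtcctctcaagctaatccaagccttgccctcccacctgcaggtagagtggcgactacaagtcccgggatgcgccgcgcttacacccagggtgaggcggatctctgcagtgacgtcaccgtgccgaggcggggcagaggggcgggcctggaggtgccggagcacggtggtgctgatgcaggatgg

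The promoters of peaks lower in #4 tended to be poorer in CpG, although the groups overlapped. At most 9 CpG were held by 109 of the 163 lower and by 174 of the 1080 higher ones. The median CpG count in promoters of lower peaks was 5 per 300 bases, against 20 in promoters of higher peaks and 22 over all 7680. For AP-1, the dimer of JUN and FOS family proteins, the pattern searched was TGANTCA, with any middle base. Matches with different middle bases were not counted apart. The pattern stood in 53 of the 163 lower promoters (32.5%), in 60 of the 1080 higher ones (5.56%; 38 without #4 replicate 2) and in 7.06% of all 7680. It is held by 7.81% of all 32851 windows of the RefSeq table. The protein-coding genes with an AP-1 match and the greatest lower difference were picked after their values were seen, to show such windows: Flacc1 (chr1:58692396-58692695, minus strand), Sh2d1b1, a SAP-family adaptor gene (chr1:170277068-170277367, plus strand), Clca3b (chr3:144849253-144849552, minus strand) and Ccdc33 (chr9:58102248-58102547, minus strand). Their matches to the pattern are in capitals, 2 in Sh2d1b1 and 1 in each of the others. Those of Clca3b and Ccdc33 read TGATTCA.
Flacc1: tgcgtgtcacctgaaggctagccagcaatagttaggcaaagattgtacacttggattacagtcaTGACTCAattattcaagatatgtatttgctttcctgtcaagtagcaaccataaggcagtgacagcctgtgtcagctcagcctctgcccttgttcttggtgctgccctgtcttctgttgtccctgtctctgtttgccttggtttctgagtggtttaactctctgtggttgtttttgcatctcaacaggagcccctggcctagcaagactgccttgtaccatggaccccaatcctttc
Sh2d1b1: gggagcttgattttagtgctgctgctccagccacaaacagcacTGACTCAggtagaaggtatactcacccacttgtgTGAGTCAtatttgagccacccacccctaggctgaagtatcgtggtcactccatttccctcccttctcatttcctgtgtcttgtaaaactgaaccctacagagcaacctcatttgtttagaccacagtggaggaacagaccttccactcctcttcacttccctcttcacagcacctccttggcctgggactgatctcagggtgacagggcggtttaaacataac
Clca3b: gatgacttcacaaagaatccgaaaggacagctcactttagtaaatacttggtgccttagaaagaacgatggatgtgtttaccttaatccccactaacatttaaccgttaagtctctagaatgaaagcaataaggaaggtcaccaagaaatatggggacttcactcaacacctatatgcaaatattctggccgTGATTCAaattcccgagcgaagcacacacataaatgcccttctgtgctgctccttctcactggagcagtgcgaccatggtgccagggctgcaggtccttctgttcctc
Ccdc33: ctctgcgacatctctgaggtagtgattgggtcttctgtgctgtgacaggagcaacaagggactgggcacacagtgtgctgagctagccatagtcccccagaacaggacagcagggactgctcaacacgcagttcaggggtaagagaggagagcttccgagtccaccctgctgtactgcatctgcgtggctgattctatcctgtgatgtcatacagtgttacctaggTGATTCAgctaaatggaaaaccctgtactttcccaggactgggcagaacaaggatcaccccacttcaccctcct

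The Flacc1 peak held 156, 168 and 197 normalized counts in #2 and 94.2, 118 and 93.5 in #4, a log2 difference of -0.77 ± 0.15 (limma, adjusted p = 0.000136). The Sh2d1b1 peak held 184, 203 and 229 in #2 and 132, 114 and 132 in #4. At both, the hairpins did not overlap, and the NTC means of 108 and 121 lay near #4. The Clca3b and Ccdc33 peaks had log2 differences of -0.66 ± 0.14 and -0.60 ± 0.16. These are poor-CpG windows with 1 to 7 CpG dinucleotides.

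CpG content moved with the motif share, so the shares were also taken among windows with at most 9 CpG. There AP-1 stood in 23.5% of 1175 windows, in 15.5% of the higher and in 40.4% of the lower ones. Of the other 11 motifs searched on both strands, RUNX (TGTGGT) was in 28.2% of lower, 11.4% of higher and 12.7% of all windows, and in 34.9%, 25.3% and 24.6% of those with at most 9 CpG. TEAD (GGAATG) was in 23.9%, 13.3% and 12.2%, and in 30.3%, 14.9% and 19.7% at low CpG. In the other direction, SP/KLF (GGGCGG) was in 28.8% of lower, 67.2% of higher and 66.4% of all windows, and in 7.34%, 31.0% and 20.2% at low CpG. NF-Y (CCAAT) was in 30.1%, 49.2% and 40.6%, and in 28.4%, 40.8% and 38.4% at low CpG. ETS (CCGGAAG) was in 4.91%, 14.4% and 19.7%, while at low CpG it was in 2.75%, 1.72% and 5.53%. In percentage points, the contrast of lower with all windows was thus narrower at low CpG for all 6 of these motifs, AP-1 included. As a ratio it was not narrower for SP/KLF or NF-Y. NRF1 (its palindromic consensus), YY1 (GCCATNTTG), CRE (TGACGTCA), the E-box (CACGTG), the TATA box (TATAAA) and MEIS (TGACAG) stood in 0% to 20.2% of lower and in 2.23% to 16.4% of all windows. A match describes the letters of a window and is not a bound site. Peaks away from promoters had no sequence here, so their motifs were not analysed.

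**Figure D4:**
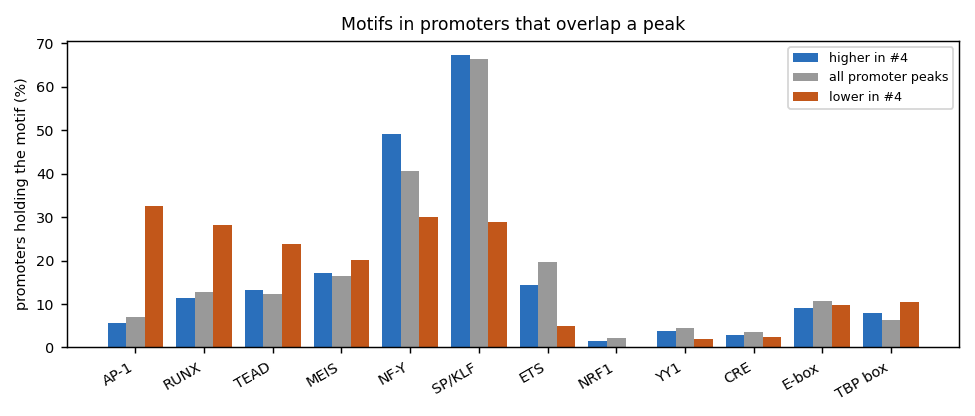
Percent of promoter windows that hold each of 12 motifs, for promoters of peaks higher in #4 (blue, n = 1080), all promoters that overlap a peak (grey, n = 7680) and promoters of peaks lower in #4 (orange, n = 163). The AP-1 bar is at 32.5% for lower and 7.06% for all promoters, and the SP/KLF bar at 28.8% and 66.4%.

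The genes of AP-1 itself, with other immediate early genes, are described next. Of 157 peaks assigned to 23 of the 24 listed genes, 17 were higher in #4 and 33 lower. These were 10.8% and 21.0%, beside 8.48% and 13.0% of all peaks. The median log2 difference for these genes was -0.05, beside 0.01 over all peaks. At their gene ends 10 of 28 were higher and 2 lower, beside 11.5% and 3.68% of all gene-end peaks. Elsewhere 7 of 129 were higher and 31 lower, beside 7.90% and 14.8% of all such peaks, so the split by position ran the same way as over all peaks. The start-site peak of Jun, the central AP-1 subunit (chromosome 4, 95051928 to 95052429), held 4260, 4454 and 4215 normalized counts in #2 and 5364, 5049 and 4811 in #4, a difference of 0.23 ± 0.04 (limma, adjusted p = 8.54e-06). Its NTC mean was 4248 ± 36.1 (SD, n = 3), near #2. Over all peaks of the list, the higher count came to 11 without #2 replicate 1 or 2 and to 10 without #4 replicate 1, and the lower count to 19 without #4 replicate 3. Start-site peaks of Atf3 (0.31 ± 0.06) and Fosl2 (0.18 ± 0.04) were also higher. The gene-end peak of Junb, another JUN family gene, was lower, at 5326 ± 106 in #2 and 4866 ± 339 in #4 (SD, n = 3). Its log2 difference was -0.13 ± 0.04 (limma, adjusted p = 0.0109).

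Maff, a small MAF bZIP repressor, was also lower in #4, at its start. Its gene-end peak (chromosome 15, 79346044 to 79346545) held 1310, 1261 and 1385 in #2 and 1020, 953 and 887 in #4, with NTC at 869 ± 90.0 (SD, n = 3). The log2 difference was -0.47 ± 0.07 (limma, adjusted p = 5.9e-07), and the libraries did not overlap. The promoter window overlapping it (chr15:79346371-79346670, plus strand) is shown because it is the gene-end peak of a listed gene with the largest lower difference among those named that have a window, and it holds no AP-1 match.
Maff: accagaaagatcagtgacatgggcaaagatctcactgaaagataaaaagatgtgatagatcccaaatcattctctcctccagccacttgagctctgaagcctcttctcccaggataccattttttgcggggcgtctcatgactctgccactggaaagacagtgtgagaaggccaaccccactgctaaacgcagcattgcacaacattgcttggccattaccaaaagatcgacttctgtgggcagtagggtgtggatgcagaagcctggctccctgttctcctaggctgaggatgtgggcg

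At Ier3, an immediate early survival gene, neighbouring elements moved apart. The start-site peak (chromosome 17, 35821494 to 35821995) was higher in #4, at 4275 ± 173 in #2 and 5067 ± 191 in #4 (SD, n = 3), a difference of 0.25 ± 0.04. The peak beside it (35819752 to 35820253) was lower, at 1882 ± 75.9 and 1420 ± 85.4, a difference of -0.41 ± 0.06 (limma, adjusted p = 1.51e-07). At both peaks the 3 libraries of each hairpin did not overlap.

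Genes of adhesion and matrix showed called peaks in both directions. Integrin and focal adhesion genes had 465 peaks, 70 higher (15.1%) and 72 lower (15.5%), beside 8.48% and 13.0% of all peaks, with a median of 0.01 as over all peaks. Actn1, an actin cross-linker of focal adhesions, had a gene-body peak (chromosome 12, 80208392 to 80208893) at 1659, 1718 and 1983 in #2 and 2692, 2709 and 2561 in #4 (0.57 ± 0.06; limma, adjusted p = 2.39e-11). NTC stood at 1564 ± 89.1 (SD, n = 3), near #2. Bcar1, the p130Cas docking protein, was higher by 0.83 ± 0.10 at a gene-body peak. Itgb6, the beta subunit of a TGF-beta-activating integrin, was lower there: 1356, 1453 and 1433 in #2 against 971, 816 and 886 in #4 (-0.67 ± 0.07, adjusted p = 6.93e-11). A gene-body peak of Lims2, the PINCH2 adaptor, was lower by 0.49 on the log2 scale.

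Extracellular matrix genes had 396 peaks, 47 higher (11.9%; 31 without #2 replicate 2) and 71 lower (17.9%), beside 8.48% and 13.0% of all peaks. Hspg2, which encodes perlecan, had a gene-body peak (chromosome 4, 137473865 to 137474366) at 359, 401 and 417 in #2 and 794, 737 and 778 in #4 (0.97 ± 0.09; limma, adjusted p = 1.59e-12). The start-site peak of Timp3, an inhibitor of matrix metalloproteinases, was at 386 ± 41.1 in #2 and 687 ± 42.6 in #4 (SD, n = 3), with NTC at 639 ± 46.2. Fibronectin showed both directions: the gene-end peak of Fn1 was higher (2852 ± 99.8 and 3436 ± 121, difference 0.27 ± 0.04), and an intergenic peak of Fn1 lower (689 ± 38.4 and 412 ± 7.17, difference -0.74 ± 0.08). An intergenic peak of Plau, the urokinase gene, was lower by 0.69 on the log2 scale. At gene ends 9 of 31 matrix peaks were higher and 1 lower, beside 11.5% and 3.68% of all gene-end peaks.

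Growth factor and fate regulators had calls both ways, as every list did, at shares near those of all peaks. TGF-beta and BMP genes had 250 peaks, 24 higher (14 without #4 replicate 2) and 35 lower, beside 8.48% and 13.0% over all peaks. The type III receptor gene Tgfbr3 and the inhibitory Smad6 were higher by 1.02 ± 0.13 and 0.93 ± 0.10, and 2 peaks of the latent TGF-beta binding protein gene Ltbp1 were lower (-0.74 ± 0.08 and -0.55 ± 0.08). YAP and TEAD genes had 26 higher (9.32%; 16 peaks without #4 replicate 2) and 35 lower (12.5%) of 279 peaks. Gene-body peaks of Tead3 (553, 510 and 521 in #2, 273, 290 and 272 in #4) and of Myof, a membrane repair ferlin (1154, 1080 and 1070 in #2, 643, 661 and 650 in #4), were lower. At gene ends 7 of 35 peaks of this list were higher, among them Ccn1 and Amotl2, and 0 were lower, beside 11.5% and 3.68% of all gene-end peaks.

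Mesenchymal regulators had 17 higher (9.66%) and 32 lower (18.2%) of 176 peaks, and epithelial genes 14 (14.6%) and 18 (18.8%) of 96, beside 8.48% and 13.0% of all peaks. Acta2, the smooth muscle actin gene, had a start-site peak (chromosome 19, 34254728 to 34255229) at 73.8, 78.3 and 70.6 in #2 and 207, 161 and 195 in #4 (1.32 ± 0.15; limma, adjusted p = 8.51e-10). Its NTC mean was 151 ± 10.8 (SD, n = 3). Peaks of Cdh2, the N-cadherin gene (-1.11 ± 0.10), and of Runx1 (-0.80 ± 0.10) were lower, and the start of Runx2 was higher (0.46 ± 0.09). The start of Snai1, the EMT repressor, was lower, at 1080 ± 46.1 in #2 and 834 ± 43.9 in #4, with NTC at 1074 ± 64.4. Of the epithelial genes, intergenic peaks of Epcam (1.35 ± 0.21) and Krt8 (0.54 ± 0.08) were higher, and those of Trp63 (-1.20 ± 0.15) and Elf3 (-0.46 ± 0.05) lower.

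NF-kappaB and inflammatory genes had 13 higher (8 without #2 replicate 2 and 7 without #4 replicate 3) and 31 lower of 160 peaks, or 8.12% and 19.4%, beside 8.48% and 13.0% of all peaks. At their gene ends 3 of 29 were higher and 4 lower, or 10.3% and 13.8%, beside 11.5% and 3.68% of all gene-end peaks. An intergenic peak of Il1a, the interleukin-1 alpha gene (chromosome 2, 129315918 to 129316419), held 607, 546 and 539 in #2 and 259, 269 and 295 in #4 (-1.04 ± 0.09; limma, adjusted p = 3.09e-12). The GM-CSF gene Csf2 had a strong intergenic peak at 2226 ± 93.3 in #2 and 1500 ± 64.8 in #4 (SD, n = 3). The start-site peak of Nfkbia, the NF-kappaB inhibitor gene, was lower (-0.16 ± 0.05). Csf1, the macrophage colony-stimulating factor gene, was higher by 0.89 ± 0.08 at a gene-body peak.

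Cell cycle genes had 18 higher (10.6%) and 19 lower (11.2%) of 170 peaks, near the 8.48% and 13.0% of all peaks. The higher count came to 8 without #2 replicate 2 and to 11 without #4 replicate 1 or 2. At their gene ends 10 of 40 were higher and 0 lower, beside 11.5% and 3.68% of all gene-end peaks. They included Cdc20, an activator of the anaphase-promoting complex (2148 ± 34.1 in #2, 2649 ± 62.9 in #4; SD, n = 3), and the cyclin gene Ccnd1. Heat shock and unfolded protein response genes had 7 of 36 gene-end peaks higher, including the chaperone genes Hspa5 and Hspb1, and 0 lower, beside the same background. Away from gene ends 8 of their 109 peaks were higher and 14 lower, beside 7.90% and 14.8% of all such peaks. Dormancy-linked genes had 17 higher (12.5%; 11 peaks without #2 replicate 2 and 10 without #4 replicate 3) and 23 lower (16.9%) of 136 peaks, beside 8.48% and 13.0% of all peaks. Of these, a gene-body peak of Tgfb2 was higher (346 ± 43.0 in #2, 560 ± 27.6 in #4, 306 ± 15.5 in NTC; SD, n = 3), and an intergenic peak of Bhlhe40 lower (-0.54 ± 0.07).

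Mediator subunit genes had 9 higher and 13 lower of 143 peaks (6.29% and 9.09%), beside 8.48% and 13.0% of all peaks. The start of Med14, the backbone subunit, was higher by 0.22 ± 0.06. Of 13 small RNA pathway genes, through which a hairpin is processed, 8 of 89 peaks were higher and 7 lower. The gene-end peak of Ago2, the slicer Argonaute, was at 1846 ± 60.0 in #2, 2180 ± 33.2 in #4 and 2191 ± 110 in NTC (SD, n = 3; 0.24 ± 0.05). Interferon response genes, whose induction is a known side effect of double-stranded RNA, had 4 higher and 8 lower of 79 peaks (5.06% and 10.1%). Ribosomal protein genes had 12 and 10 of 139, and p53 targets 9 and 12 of 96. Among markers of other cell types, 1 of 24 peaks was higher and 4 lower for blood, 2 and 9 of 51 for endothelium and fat, and 4 and 5 of 51 for neural cells. Leaving out 1 library moved small counts by over 1.5 times. Higher small RNA peaks came to 4 without #4 replicate 1 and to 5 without #2 replicate 2, #2 replicate 3 or #4 replicate 2. Higher interferon peaks came to 2 without #2 replicate 3, #4 replicate 2 or #4 replicate 3, and lower ones to 5 without #2 replicate 2. Higher ribosomal protein peaks came to 22 without #2 replicate 1, 6 without #2 replicate 2 and 7 without #4 replicate 3. Higher p53 target peaks came to 3 to 5 without #2 replicate 1 or 2 or #4 replicate 2 or 3. Higher endothelial peaks came to 1 without replicate 2 of either hairpin, higher neural ones to 2 without #4 replicate 2 and lower neural ones to 3 without #2 replicate 3. The smallest adjusted p among these markers was at a Cdh5 gene-body peak, which held 900, 923 and 900 in #2 and 390, 452 and 460 in #4, although the gene-end peak of Cdh5 was at 112 ± 20.9 and 105 ± 9.16 without passing.

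Differences clustered along chromosomes. When a peak was higher in #4, the next peak within 2 kb was higher too in 29.2% of 905 pairs, against 8.66% of all pairs that close. For lower peaks it was 40.5% of 1312 pairs, against 13.2%. Across the 10108 pairs within 2 kb the log2 differences correlated at r = 0.44, and at 50 to 200 kb at r = 0.11. Neighbouring peaks share the libraries, so this is a description.

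Genes with many peaks were then ranked by the share called in 1 direction. Of 2315 genes with at least 8 peaks, 2107 had a called peak and 927 had calls in both directions. In 27 genes at least 50% of the peaks were higher in #4, and in 69 at least 50% were lower. Over all peaks 8.48% were higher and 13.0% lower, and the genes named next were picked for their share. Timp3 led the higher genes with 6 of 8 peaks, followed by Angpt1, the angiopoietin ligand of the TIE2 receptor (7 of 10), Scube3 (7 of 10), Ltbp4 (10 of 15) and the ceruloplasmin gene Cp (6 of 9). The lower genes were led by Rbm39, a splicing cofactor (8 of 10), the lens filament gene Bfsp1 (7 of 9), Reln, which encodes the secreted glycoprotein reelin (7 of 9), the transporter Abcc5 (6 of 9) and the clotting factor gene F13a1 (6 of 9). Leaving out 1 library took Ltbp4 to 6 called peaks (without #2 replicate 1) and 5 (without #4 replicate 1), and Angpt1 to 4 (without #4 replicate 3). Cp came to 1 without #4 replicate 2 and to 3 without any other hairpin library. Rbm39 came to 4 or 5 without any hairpin library but #4 replicate 1, Bfsp1 to 4 (without #4 replicate 2) and Abcc5 to 3 (without #2 replicate 1). Timp3 had at least 4 called peaks, and Reln, Scube3 and F13a1 at least 5, whichever library was left out.

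**Figure D5:**
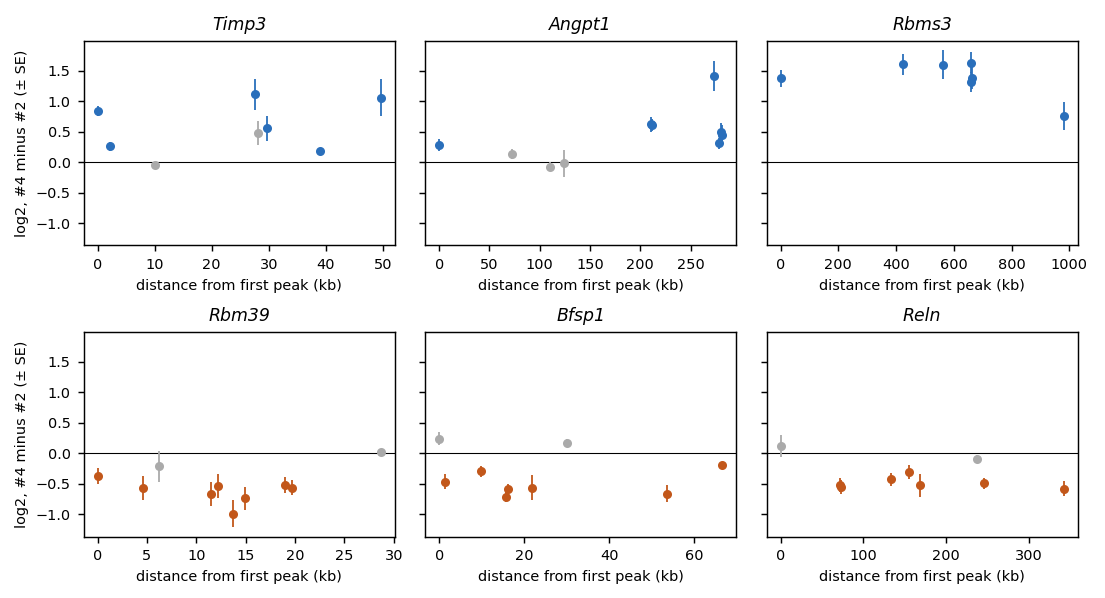
Log2 difference between hairpins (#4 minus #2) with limma's SE for each peak assigned to 6 genes, against the distance from the first peak of the gene in kb. Blue points are higher in #4, orange points lower in #4 and grey points not past the threshold. Rbms3, added after its values were seen, has 7 of 7 peaks higher from 0.75 to 1.63, and Rbm39 has 8 of 10 lower.

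In windows of 2 Mb with at least 30 peaks, medians ran from -0.28 to 0.24 over 822 windows. The windows named here were picked from the extremes, and over all peaks 8.48% were higher and 13.0% lower. The lowest lay on chromosome 13 at 114 to 116 Mb, where 22 of 47 peaks were lower in #4 and 0 higher. It holds the collagen-binding integrin genes Itga1 and Itga2 and the activin antagonist gene Fst. The window at 98 to 100 Mb of chromosome 14, with the Kruppel-like factor genes Klf12 and Klf5, had 15 of 33 lower and 2 higher. The highest lay on chromosome 15 at 42 to 44 Mb, with the R-spondin gene Rspo2 and Angpt1, where 16 of 37 peaks were higher and 0 lower.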

How the data were processed

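ATAC-seq was done on D2A1-d cells in 9 libraries. Per the submitters' processing notes, Trim Galore, BWA, MACS2 and featureCounts (Subread) were used with mm10 (GRCm38). For versions, peak merging, duplicate and mitochondrial filters and any transposase offset the entry is: not given in the sources used here. As deposited, the signal per peak is what the authors call DESeq2 normalized counts, so each library was divided by its own size factor (0.799 to 1.22, worked out from the step between values). Peaks were 501 bases wide, and coordinates are as deposited.

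A floor on the mean of all 9 libraries, 10 normalized counts, removed 6 peaks. Values were tested as log2(value + 1) with limma 3.58.1 (R 4.3.3), with trend and a mean for each of the 3 groups. The contrast was #4 minus #2, two-sided, with Benjamini-Hochberg adjustment over all peaks and a threshold of 0.05. NTC entered the estimate of spread and not the contrast. The fit was tested on simulated data. The number of reads in a peak limits the precision, with a median of 162 to 252 reads.

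Peaks were assigned to protein-coding genes of RefSeq GRCm38.p6: within 1 kb of an end, in the body, or intergenic within 50 kb. An assigned gene is the nearest by position and not a tested target. Start sites came from the RefSeq promoter table, which covers 17491 of 21896 such genes. Named peaks had an adjusted p under 0.05, a mean of at least 50 and hairpins that did not overlap. They were ranked by log2 difference with 1 peak per gene: 12 each way with at most 4 unassigned, and 6 each way at gene ends. Added to these were up to 2 each way per list by adjusted p, all Med1 and Med4 peaks, and the 5 genes each way with the greatest share of called peaks among those with at least 8. Gene-end peaks of listed genes that are named beyond this were chosen after their values were seen. Each kept the threshold whichever library was left out, unless a library is named. For Junb and Jup this is not stated. The 19 lists held 516 gene entries, of which 487 had a peak. Members, lists and rules were chosen with earlier results of these data known. The alternatives tried were other scalings, pseudocounts, filters, weights, thresholds, position windows, a replicate block and leaving out each library. Voom weights on worked-out reads and thinned reads were added after the data were seen. Python 3.11.15 with pandas 2.3.3, numpy 2.4.6, scipy 1.17.1 and matplotlib 3.10.9 made the tables and figures.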

Additional observations from a re-analysis of the deposited data

Results flagged for a closer look

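At 22 of the 33 peaks named for their rank, the 3 #2 libraries and the 3 #4 libraries lay on opposite sides of all 3 NTC libraries, and the direct contrast of the hairpins passed the threshold (limma). In 10 of them #4 was above and #2 below NTC. The log2 differences (#4 minus #2) were Meis2 (1.84), Efcab11 (1.69), Rbms3 (1.63), Nrp1 (1.61), Jph1 (1.60), Grb14 (1.60), Stim1 (1.59), Cep126 (1.49), Fras1 (1.43) and Kif5c (1.42). In 12 of them #4 was below and #2 above NTC, and the differences were Mapk4 (-1.74), Myl10 (-1.67), Nalcn (-1.62), Cobl (-1.50), Ankrd34c (-1.44), an unassigned peak of chromosome 9 (-1.43), Pyroxd2 (-1.41), Spo11 (-1.41), an unassigned peak of chromosome 4 (-1.39), Upp2 (-1.37), Cpne2 (-1.32) and Bpifb4 (-0.997). Over all peaks, 1467 of the called ones (8.98%) had the hairpins on opposite sides of every NTC library, 699 higher in #4 and 768 lower. The named peaks were ranked by the difference between hairpins, so their place around NTC is a description.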

How the results depend on the processing

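No named peak past the threshold changed sign under the alternatives run. The median of distal peaks went from -0.01 to 0.01 with equal totals and to 0.00066 with quantile scaling, and the medians of 12 of 19 lists took both signs over the alternatives, all of them within 0.05 of 0 in the reported fit. limma without trend called 10618 peaks, 3911 of them higher in #4, with 420 gene-end peaks higher and 244 lower. An adjusted p threshold of 0.01 left 10159 peaks, 3314 of them higher, with 630 gene-end peaks higher, 274 lower and 2684 higher away from gene ends. Gene ends taken within 500 bases left 237 gene-end peaks lower. Leaving out 1 library at a time gave 12701 to 16215 called peaks, 4436 to 6356 higher and 8265 to 9859 lower. Gene-end peaks higher in #4 then ran from 818 (without #2 replicate 2) through 864 (without #4 replicate 2) to 1875, those lower from 334 to 476, and the distal counts from 3572 to 4927 higher and 7877 to 9406 lower. Scaling to equal totals, by quantiles or by cyclic loess gave 7715, 7909 and 7560 higher and 9210, 8878 and 9331 lower, so the lower share of calls went from 60.6% to 52.9% at its lowest. The median of gene-end peaks stayed positive at 0.04 to 0.08 in all settings. With a replicate block, 5899 peaks were higher and 9494 lower. Deviations of libraries with the same replicate number correlated at -0.084 to 0.033, and those with different numbers at -0.036 to 0.076. No shared variation by number was thus seen, which cannot show whether equally numbered libraries were prepared together.

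Of 208 called peaks followed through the alternatives, which include all called gene-end peaks of the lists, 77 lost the threshold in at least 1 alternative: 70 without trend, 45 at an adjusted p of 0.01, 55 without 1 library and 26 in others. With the replicate block 10 lost it. Counts for lists moved by over 1.5 times in 94 cases and those for single genes in 24, and the cause was not tested. AP-1 promoters ran from 38 to 62 higher and from 45 to 58 lower when 1 library was left out. Depth limits the weak peaks, where the greatest differences lie.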
